A study of Mus musculus with 9 samples.

Results

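Hox genes encode homeodomain transcription factors that sit in 4 chromosomal clusters, and their physical order in a cluster follows the order in which they are used along the body axis. Low paralog numbers mark anterior domains and high numbers mark posterior and distal domains. Cultured fibroblasts are known to keep part of this pattern after they leave the body, so the set of Hox genes in a fibroblast culture is commonly read as a positional code. The members described here were chosen by symbol from the deposited table: Hox, a cluster letter from a to d and a number, without opposite-strand transcripts. They were 33 genes among 18049 genes listed, with 10 in HoxA, 9 in HoxB, 9 in HoxC and 5 in HoxD.

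The libraries were 9 clones of primary mouse tumor cells (MPC), each grown from 1 colony picked with a cloning cylinder. All came from pancreatic tumors of WTg mice, written EL1-Luc/EL1-Tag x CAG-Mettl3 in the labels. In these mice the elastase I promoter drives luciferase and the SV40 large T antigen in the pancreas, and the CAG promoter drives Mettl3, an RNA methyltransferase, broadly. The cells were grown in DMEM with fetal bovine serum. Age, sex and the number of mice are not given in the sources used here. The treatment label reads none, while the treatment protocol field of the same samples names NMS-P937 at 80 nM for 24 h, so whether the cells saw this PLK1 inhibitor is unclear. There was 1 condition and no control group among these 9 libraries. Nothing in the labels says which clones came from which animal, so every test measures the spread between these libraries, which may be technical in part.

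Levels are normalized counts, obtained by undoing the deposited log2 scale. Depth was 12198036 to 20453901 reads per library, and 3 reads, used as the floor of detection, were worth 3.79 to 6.56 normalized counts. The columns of the deposited table carry 3 kinds of prefix, called A (1 library, A1), B (4 libraries, B1 to B4) and C (4 libraries, C1 to C4) here. What the prefixes stand for is not stated. Xist, the X-inactivation transcript, was at 29664 to 32912 normalized counts in the B libraries and at 0 to 8.39 in the others, and Ddx3y, a Y-linked gene, was at 0 in the B libraries and at 2376 to 2720 in the others. A1 thus had the Xist and Ddx3y state of the C libraries, and in a comparison of B with C the prefix and sex cannot be told apart. Library A1 had the lowest depth and the highest Mettl3, at 2184 normalized counts against 468 to 621 in the other 8 libraries. The cells are labelled fibroblasts. Of 12 fibroblast markers, 11 were above the floor in all 9 clones, with a summed level of 317922 to 866722 normalized counts, but all 12 macrophage markers were also above it in all 9, with a summed level of 520861 to 824447. Of 5 epithelial markers listed, Cdh1 and Krt19 were above the floor in all 9 clones and Epcam and Krt8 in none, with a summed level of 20.3 to 188.

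The HoxB genes from Hoxb2 to Hoxb9 were above the floor of 3 reads in every clone, while no HoxD gene was. Of the 33 genes, 16 were above the floor in all 9 clones, 10 in some and 7 in none. In HoxA these numbers were 5, 3 and 2, in HoxB 8, 0 and 1, in HoxC 3, 3 and 3, and in HoxD 0, 4 and 1. The highest paralog number above the floor in all 9 clones was 7 in HoxA, 9 in HoxB and 6 in HoxC. The number of Hox genes above the floor ran from 17 in clone B2 to 26 in clone B4. Hoxc11 and Hoxd13 had no read in any library, which allows a level of up to 3.79 to 6.56 normalized counts in each. Because each library is a bulk sample of a culture, fewer cells that use a gene and less RNA per cell cannot be told apart.

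**Figure D1:**
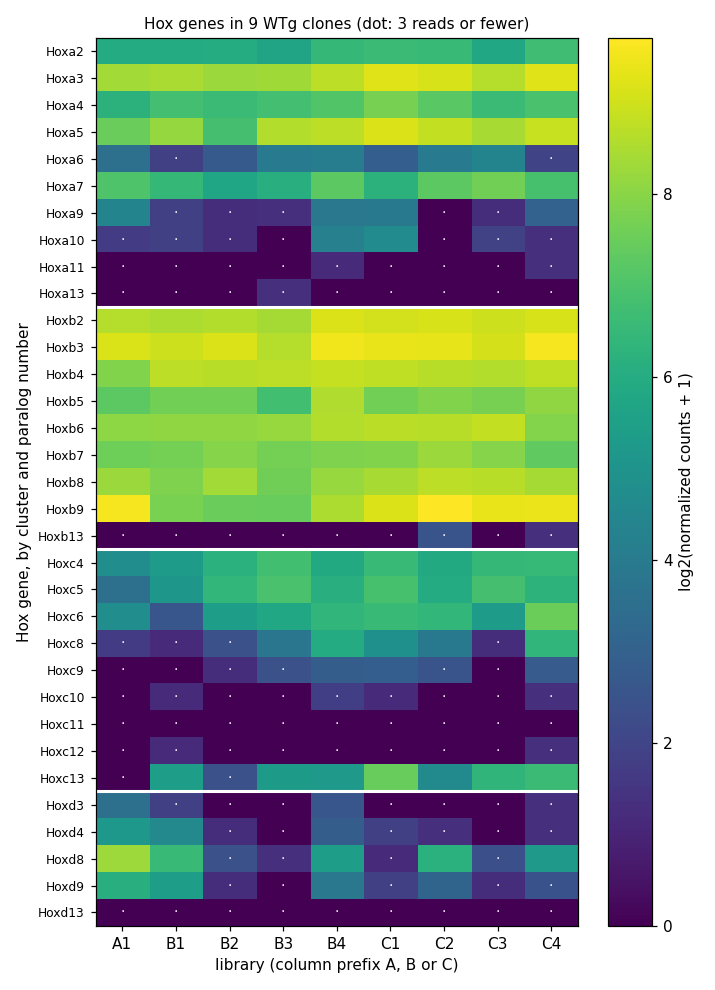
Level of each of the 33 Hox genes (rows, ordered by cluster and paralog number) in the 9 clones (columns), as log2(normalized counts + 1) on the colour scale; a dot marks 3 reads or fewer. The HoxB block from Hoxb2 to Hoxb9 is bright in every clone, and the HoxD block is above the floor in A1, B1, B4, C2 and C4 only.

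HoxB held most of the summed Hox level. Its share of Hox normalized counts was 67.2% ± 4.33 (SD, n = 9), against 24.4% ± 3.56 for HoxA, 6.37% ± 2.90 for HoxC and 2.08% ± 3.35 for HoxD. The HoxD share ran from 0.0422% to 10.2%, with the highest value in A1, and the HoxC share from 1.57% to 9.83%. Without A1 the mean HoxD share was 1.07%. These shares are not corrected for transcript length, so they say how reads fell and not which gene made more transcripts. The 33 genes together summed to 3431 to 5560 normalized counts, 0.0177% ± 0.00358 of a library (SD, n = 9).

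The members whose levels differed most between clones lie in HoxD and HoxC. Start-site sequences are shown for the 4 HoxD genes that were highest in A1 and for Hoxc4, which was lowest there, because the clone pattern described next turns on them. Each is the 250 bases before the gene start in RefSeq, build GRCm38.p6, in the direction of the gene. Capitals mark matches, on either strand, to AGGTCA (a half-site of nuclear receptors such as the retinoic acid receptors), TATAAA (a form of the TATA box), to CCAAT (the core bound by NF-Y) or to TGATNNAT (a Pbx and Hox type of site). The 4 motifs and the 5 genes were chosen after the levels were seen. Hoxc4 has other start sites, and the one shown lies inside the gene as RefSeq draws it.
Hoxd9, chr2:74697513-74697762, plus strand: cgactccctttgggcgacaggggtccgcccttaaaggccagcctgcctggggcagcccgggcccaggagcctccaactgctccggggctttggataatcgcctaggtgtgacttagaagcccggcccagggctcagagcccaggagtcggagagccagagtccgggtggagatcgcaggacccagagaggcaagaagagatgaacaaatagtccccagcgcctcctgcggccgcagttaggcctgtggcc
Hoxd8, chr2:74704365-74704614, plus strand: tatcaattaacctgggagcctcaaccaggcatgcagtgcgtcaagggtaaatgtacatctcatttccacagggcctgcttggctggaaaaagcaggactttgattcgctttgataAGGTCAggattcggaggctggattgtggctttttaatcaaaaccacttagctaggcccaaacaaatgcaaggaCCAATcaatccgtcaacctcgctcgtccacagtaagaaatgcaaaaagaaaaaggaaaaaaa
Hoxd3, chr2:74711743-74711992, plus strand: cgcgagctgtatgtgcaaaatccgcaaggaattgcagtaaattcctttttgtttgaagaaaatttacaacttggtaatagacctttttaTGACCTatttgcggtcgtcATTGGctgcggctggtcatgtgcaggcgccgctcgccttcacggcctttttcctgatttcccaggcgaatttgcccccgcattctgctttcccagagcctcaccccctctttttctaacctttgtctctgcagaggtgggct
Hoxd4, chr2:74721728-74721977, plus strand: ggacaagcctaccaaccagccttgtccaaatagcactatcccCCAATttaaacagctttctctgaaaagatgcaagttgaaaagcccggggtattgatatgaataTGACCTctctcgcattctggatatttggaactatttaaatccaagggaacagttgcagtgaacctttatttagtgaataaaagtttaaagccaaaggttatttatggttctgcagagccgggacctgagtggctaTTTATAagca
Hoxc4, chr15:103034145-103034394, plus strand: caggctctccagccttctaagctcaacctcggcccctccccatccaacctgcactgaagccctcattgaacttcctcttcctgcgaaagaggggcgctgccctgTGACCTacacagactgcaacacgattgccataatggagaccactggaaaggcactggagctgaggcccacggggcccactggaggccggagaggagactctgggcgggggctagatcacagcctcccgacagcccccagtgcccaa

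AGGTCA was matched in Hoxd3, Hoxd4, Hoxd8 and Hoxc4, and none of the 4 motifs was matched in Hoxd9. Of 18 such windows found for 17 of the 33 Hox genes, 27.8% held AGGTCA, against 14.0% of the 32851 windows listed for all genes. TATAAA was in 22.2% against 12.4%, CCAAT in 55.6% against 33.8% and TGATNNAT in 11.1% against 7.68%. The median window had a GC content of 56.4% and 12.5 CpG dinucleotides for Hox genes, and 52.4% and 6 for all genes. A match is a run of letters and not a site shown to be bound.

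Hoxd8, a mid-trunk paralog at chr2:74704615-74707933, was at 312.9 normalized counts in A1, 92.9 in B1, 71.8 in C2, 41.6 in B4 and 36.9 in C4. It was at 1.29 to 4.27 in the other 4 clones, each with 3 reads or fewer. The clones therefore fell on both sides of the floor for this gene, and both kinds were found under prefix B and under prefix C. Hoxd9, its neighbour at chr2:74697763-74700208, was at 67.8 in A1, 42.0 in B1, 13.9 in B4 and 7.80 in C2, and at or under the floor in the other 5 clones. Hoxd4 was at 35.0 in A1, 22.9 in B1 and 6.31 in B4, and Hoxd3 at 10.9 in A1 and 5.05 in B4, with at most 3 reads in every other clone. The order A1, B1, B4 was thus the same for Hoxd4 and Hoxd9. Hoxd3 overlaps Hoxd4 in the RefSeq annotation, so reads of the pair are not cleanly separable.

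The anterior HoxC genes were lowest in the clones where Hoxd9 was highest. Hoxc5 was at 10.9 normalized counts in A1, 34.4 in B1, 62.4 in C2, 68.1 in B4, 76.8 in C4, 84.0 in B2, 113 in C3, 116 in C1 and 120 in B3. Hoxc4 was at 26.3 in A1 and 40.7 in B1, and between 57.8 and 108.5 in the other 7. Over the 9 clones Pearson's r of log2 levels was 0.96 for Hoxc4 with Hoxc5 and 0.91 for Hoxd8 with Hoxd9, and -0.90 for Hoxc5 with Hoxd9 (Spearman's rho -0.93). For that last pair r was -0.92 without A1, -0.93 after centring within prefixes B and C, and -0.83 without the 2 clones farthest from the median. Hoxd9 was above the floor in only 4 of 9 clones and Hoxd8 in 5. The r and rho of pairs with either gene thus rest partly on levels that cannot be told from 0. The 2 clones farthest from the median were A1 and B1, and without them only B4 and C2 had Hoxd9 above the floor. These pairs were picked after all 210 pairs were seen, and the points share libraries and scaling, so the values are a description with no test. Hoxc6, the next gene, was lowest in B1, at 5.09, followed by A1 at 26.3 and C3 at 40.6. It had a median of 53.5 and reached 182 in C4.

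**Figure D2:**
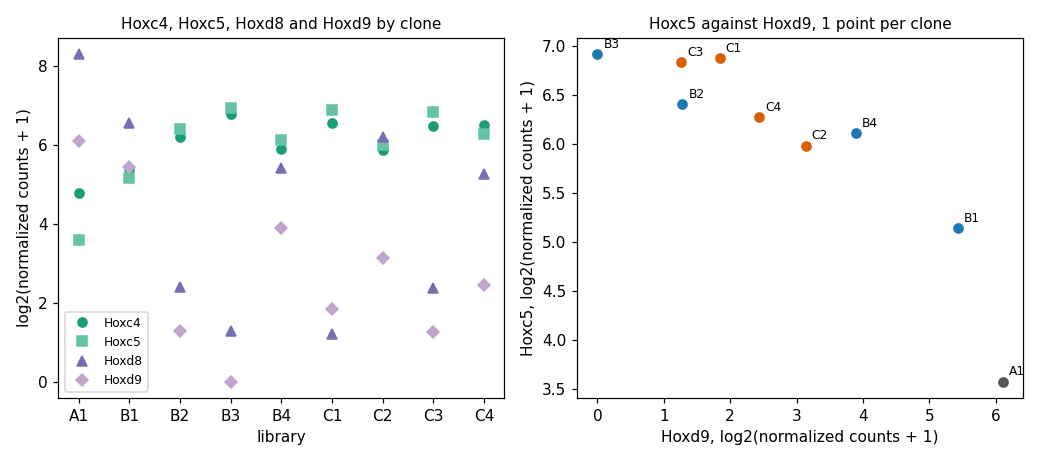
Left, log2(normalized counts + 1) of Hoxc4, Hoxc5, Hoxd8 and Hoxd9 in each clone; right, Hoxc5 against Hoxd9 with 1 point per clone, coloured by column prefix. A1 and B1 hold the highest Hoxd9 (67.8 and 42.0 normalized counts) and the lowest Hoxc5 (10.9 and 34.4).

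Hoxc8 and Hoxc13 also differed widely. Hoxc8 ran from 1.27 to 82.7 normalized counts with a median of 13.0, and was highest in C4 and B4. It was above the floor in 5 of 9 clones. Hoxc13, the most posterior HoxC gene and a regulator of hair and nail keratins, had no read in A1 and 3 reads in B2, a median of 37.6 and a maximum of 174.6 in C1. It was above the floor in 7 of 9 clones, although the genes between it and Hoxc8 were low: Hoxc9 was at most 6.47, Hoxc10 at most 2.52, Hoxc12 at most 1.48 and Hoxc11 at 0. The 7 clones with Hoxc13 above the floor therefore had a gap at Hoxc10 to Hoxc12, and A1 and B2 had no HoxC gene above it beyond Hoxc6. In HoxA a gap of 1 gene was seen in B1 and C4, where Hoxa6 had 2 reads and Hoxa7 was above the floor. Hoxa11 and Hoxa13 had at most 1 read in any library, and Hoxb13, the only listed HoxB gene beyond Hoxb9, had at most 3.

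In HoxA the border of detection moved between clones. Hoxa3 was at 299 to 605 normalized counts with a median of 397, Hoxa5 at 114 to 586 with a median of 388, and Hoxa4 at 74.4 to 207 with a median of 112. All 3 were highest in C1. Hoxa7 was at 52.7 to 196 with a median of 118. Hoxa9 was above the floor in A1 (19.7), C1 (14.2), B4 (13.9) and C4 (7.38), and Hoxa10 in C1 (24.6) and B4 (17.7) only. Of these 2 clones, C1 had 0 HoxD genes above the floor, while B4 had 4, as many as A1. Hoxa6 was low throughout, at 2.55 to 19.6. Hoxa3 spans Hoxa4, Hoxa5 and Hoxa6 in the annotation, so reads of these genes are not cleanly separable. Hoxa3, Hoxa5 and Hoxa6 lie on the same strand, so counting by strand would not part them. Whether counting used strand is not stated, so antisense reads may be in these values as well.

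In HoxB the SD of log2 levels was 0.26 to 0.49 for Hoxb2 to Hoxb8 and 0.94 for Hoxb9. Hoxb3, a hindbrain and neck paralog, was at 395 to 759 normalized counts with a median of 587, and Hoxb2 at 340 to 592 with a median of 504. Hoxb4 was at 379 to 457 in 8 clones and at 234 in A1, which stood apart from the rest. Hoxb3 spans Hoxb4 in the annotation, so reads of this pair are not cleanly separable. Hoxb7 ran from 162 to 306 and Hoxb8 from 195 to 426. Hoxb9, the HoxB gene with the widest range, ran from 175 to 834 with a median of 591.

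The SD of log2(normalized counts + 1) over clones was above the median of all genes for all 21 members averaging 10 or more normalized counts. The median SD was 0.63 over these members and 0.25 over 14705 genes. Without A1 the count was 20 of 21, with medians of 0.50 and 0.23. The genes were still chosen by their mean with A1 included. Hoxd9 averaged 15.7 normalized counts with A1 and 9.19 without it, so it entered through A1. The members were lower in level than most genes, with a median of 122 against 549 normalized counts, and the plot of SD against level spreads more widely at low levels; the part of level in the SD was not tested. The 6 largest SDs were 2.57 for Hoxd8, 2.30 for Hoxc13, 2.02 for Hoxd9, 1.99 for Hoxc8, 1.40 for Hoxc6 and 1.07 for Hoxc5, between the 92.5th and 99.3rd percentile of all genes. The smallest was 0.26 for Hoxb7.

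**Figure D3:**
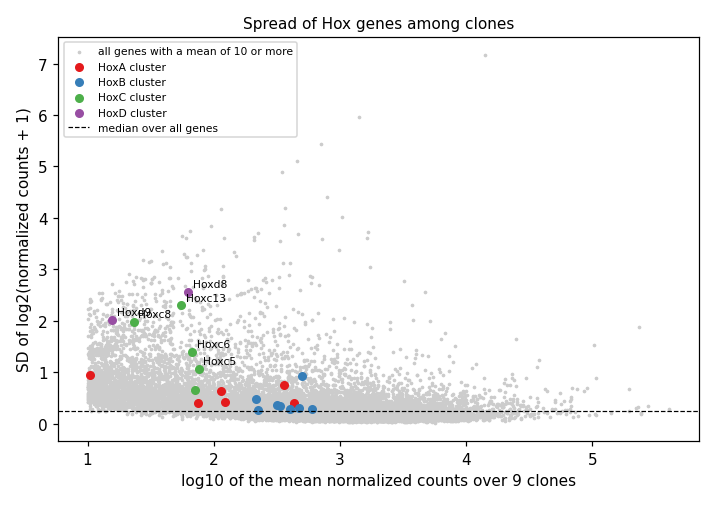
SD of log2(normalized counts + 1) over the 9 clones against the log10 of the mean level, for the 14705 genes averaging 10 or more (grey) and for 21 Hox genes coloured by cluster; the dashed line is the median SD of all genes, 0.25. HoxC and HoxD genes hold the 6 largest SDs among these 21 Hox genes, and most HoxB genes lie near the line.

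Counting error alone gives some spread, so the recovered reads of each gene were set against a Poisson model scaled to each library with a chi-square test and Benjamini-Hochberg adjustment over all genes. Among all genes 86.0% were called, and all 20 members tested were called. With so high a background the count says little about Hox genes. The median chi-square per degree of freedom was 14.9 for the members and 7.38 for all genes. Within prefix B 19 of 22 members were called, against 55.9% of all genes, and within prefix C 18 of 21, against 68.0%. Without A1 it was 20 of 21, against 80.7%.

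Between the 2 prefixes with 4 libraries, Hoxb9 was higher in C. It was at 178, 175, 215 and 360 normalized counts in the B libraries and at 591, 664, 693 and 834 in the C libraries, and A1 was at 766. The groups did not overlap, and the log2 difference was 1.63 (SE 0.23, adjusted p = 0.0465 in limma over all 14705 genes). In limma 0.197% of all genes were called in either direction and 0.116% as higher in C, and Hoxb9 was the 1 member called of 21 tested. The call was lost in 8 of 17 alternatives, among them leaving out B1, B2, B3, C1, C2 or C4 in turn (adjusted p = 0.0731 to 0.139 in those limma fits), while the log2 difference stayed between 1.52 and 1.87. Whether it goes with sex or with what the prefix stands for cannot be told apart.

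With Hoxb9, 4 of the 21 members passed an unadjusted p of 0.05, a share near the 20.1% of all genes that did, so nothing is read from the other 3. Hoxa3 was at 351 ± 59.1 normalized counts in B and 540 ± 97.4 in C (SD, n = 4 each; adjusted p = 0.151 in limma), Hoxb8 at 262 ± 60.4 and 378 ± 45.4 (adjusted p = 0.171 in limma), and Hoxb2 at 421 ± 116 and 537 ± 27.03 (adjusted p = 0.243 in limma). Leaving out C3 brought Hoxa3 under the threshold (adjusted p = 0.0443 in limma). Hoxb4 was at 429 ± 21.2 in B and 414 ± 27.8 in C (SD, n = 4 each), a log2 difference of -0.05 (SE 0.08). Of the 21 members tested, 18 had a log2 difference above 0, against 47.1% of all genes, and the median was 0.35 against -0.02; members share libraries, so these counts carry no test. Cell type markers were set side by side between the prefixes as well, as median log2 differences of C minus B. The median log2 difference was 0.55 over 12 fibroblast markers, with Pdgfra at 1.85, and -0.40 over 12 macrophage markers, with Csf1r at -0.71. It was -3.86 over 4 mesothelial, 2.58 over 6 acinar and 1.76 over 2 epithelial markers tested. Over 3 endothelial and 2 neural crest and Schwann markers it was -0.35 and -0.11. Summed fibroblast markers were at 317922 to 524436 normalized counts in B and 404181 to 866722 in C. For macrophage markers the sums were 673480 to 764748 in B and 520861 to 824447 in C. The prefixes thus overlapped in these sums. Summed mesothelial markers were at 128 to 1200 normalized counts in B and 0 to 726 in C. Summed acinar markers were at 145 to 313 in B and 177 to 2415 in C. Of the 4 mesothelial markers 0 were above the floor in every clone, and of the 6 acinar markers 1 was. No marker of these lists was called. The part of these markers in the Hox values was not tested. The C libraries lay above the B libraries with no overlap for 2 members, Hoxb8 and Hoxb9, and for 4.55% of all genes. No member was higher in B without overlap. The share of all genes that was is not given here, so nothing is read from this count. The other 12 members had a mean under 10 and were not tested.

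**Figure D4:**
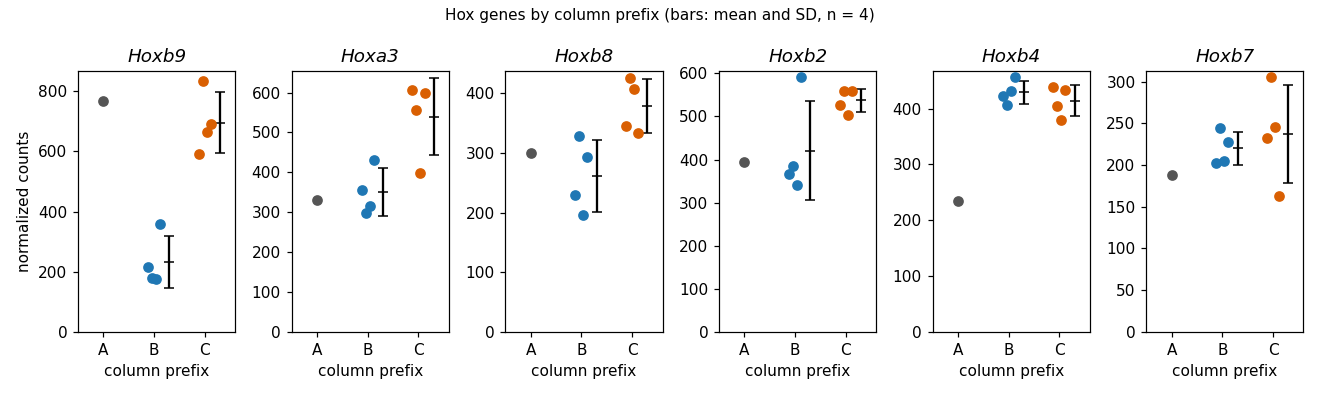
Normalized counts of 6 Hox genes in the 9 libraries by column prefix, 1 point per library, with the mean and SD of the 4 libraries of prefixes B and C; the y axes start at 0. For Hoxb9 every C library (591 to 834) lies above every B library (175 to 360), while Hoxb4 overlaps between B and C and is lowest in A1 (234).

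Across all pairs of the 21 members, the median Pearson's r over clones was 0.47 over 54 pairs in the same cluster and 0.25 over 156 pairs in different clusters, and 0.73 over 17 pairs next to each other in a cluster among these 21, which takes in Hoxc8 with Hoxc13 although other genes lie between them. After centring within prefixes B and C these were 0.35, 0.14 and 0.58, and without A1 0.48, 0.22 and 0.68. The 21 members were kept the same without A1. With a mean of at least 50 asked for, the medians were 0.50, 0.31 and 0.62. Hoxa3 with Hoxa4 or Hoxa5, and Hoxb3 with Hoxb4, overlap in the annotation. The part of shared reads in their r was not tested. Pairs share genes and libraries, so the medians are a description. Some pairs across clusters had values as high, such as Hoxa2 with Hoxb3 (r = 0.89, rho = 0.93, n = 9).

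**Figure D5:**
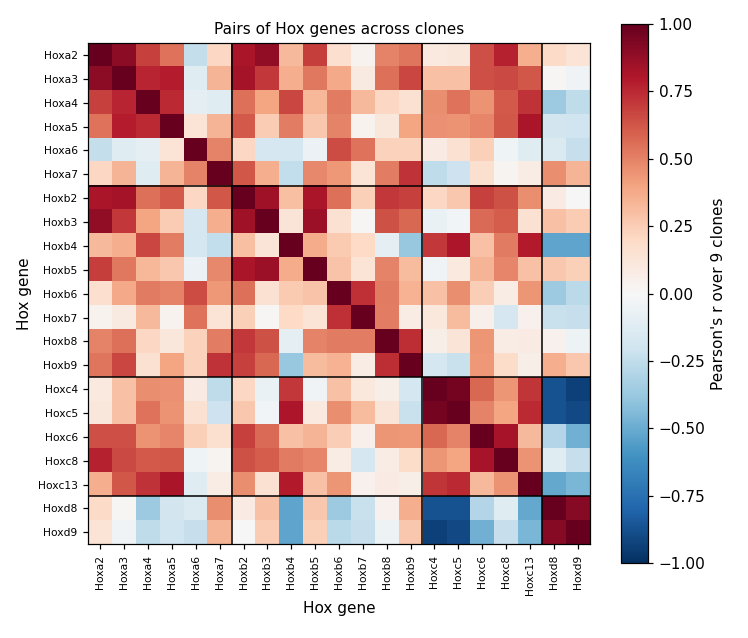
Pearson's r of log2(normalized counts + 1) over the 9 clones for each pair of the 21 Hox genes averaging 10 or more normalized counts, ordered by cluster (black lines). Hoxc4 and Hoxc5 run with each other (0.96) and against Hoxd8 and Hoxd9, with -0.90 for Hoxc5 and Hoxd9.

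Among genes that work with or upstream of Hox genes, Kdm6a was the 1 gene called between prefixes. The 8 cofactors of the Pbx, Meis and Pknox families described here, which bind DNA together with Hox proteins, were above the floor in all 9 clones, and none was called between prefixes. Pbx2, the highest of these by mean, was at 929 to 1668 normalized counts with the maximum in B3. Of 19 Polycomb and H3K27 demethylase genes, which set or remove the repressive mark that covers silent Hox genes, all were above the floor in every clone, Rbbp7 was highest by mean, at 2644 to 5331, and 1 was called: Kdm6a, an X-linked demethylase, at 1187 ± 120 in B and 622 ± 44.7 in C (SD, n = 4 each; log2 difference -0.93, SE 0.09, adjusted p = 0.00759 in limma). Kdm6a was at 676 in A1, which had the Xist and Ddx3y state of the C libraries. Whether the Kdm6a difference goes with sex or with what the prefix stands for cannot be told apart. None of 8 Trithorax genes, which keep Hox genes active, was called, and Kmt2a, their highest, was at 2420 to 3204. Of 13 genes of retinoic acid signalling, an inducer of anterior Hox genes, 12 were listed, 10 were tested and none was called. Rxra, a retinoid receptor and the highest of them, was at 2280 to 5830. The uptake receptor Stra6 was at or under the floor in every clone. Over the 10 retinoic acid genes tested the median log2 difference, C minus B, was -0.18. Aldh1a3 had the largest, at 3.43 (SE 0.55, adjusted p = 0.0672 in limma). Of the 6 trunk inducers only Gdf11 was listed, at 366 to 678.

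Other positional transcription factors were listed for 30 of 33 genes, and 10 were above the floor in all 9 clones. Tbx5, En2, Lmx1b, Otx1, Dlx5 and Alx1 were at or under the floor in every clone. None of the 20 tested was called between prefixes. Nkx2-3, a gut and spleen mesenchyme factor and the highest of the list by mean, was at 8.54 to 1103 normalized counts with a median of 722. The opposite-strand transcript Hoxb5os was at 36.2 to 328 with a median of 115, and the noncoding transcript Hotairm1 at 26.3 in A1 and 82.6 to 144 in the other 8 clones.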

How the data were processed

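RNA from 9 MPC clones was sequenced from libraries made with a stranded mRNA kit, per the labels. The submitters' processing notes name FastQC 0.11.9, STAR 2.7.10, RSEM 1.3.3 and the build GRCm38, with no role or order; the annotation, the strand setting and the scaling software are not given in the sources used here. The authors deposited log2 values of scaled counts with an offset of 4. The log2 was undone and 4 subtracted to give normalized counts. The value of 1 read was found from the spacing of low values, and 100% of the values under 1000 reads came out whole within 0.1. Depth was 12198036 to 20453901 reads; floors cover counting error only. A further 6 per-sample columns, of MEF from outside this study, were not used in any step, so clones against MEFs was not analysed here. Of the identifiers, 17975 of 18049 matched the gene names table.

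Prefixes were compared with limma 3.58.1 in R 4.3.3 (trend, two-sided) on log2(normalized counts + 1) for genes with a mean of at least 10, adjusted by Benjamini-Hochberg at 0.05. The pseudocount makes folds of low genes too small. The chi-square test took genes with at least 5 expected reads in every library. The alternative with voom used each library's total reads. The scripts were tested on simulated data. Members and lists were chosen with earlier results of these data known. Genes given in full were the 3 highest of each cluster above the floor in at least 5 clones, the highest paralog so detected, the 6 with the largest SD, and those called between prefixes. The rule named levels per length; lengths were not used here, so mean normalized counts took their place. The names Hoxb1, Hoxd1, Hoxd10, Hoxd11 and Hoxd12 were not analysed here. Promoter windows came from RefSeq (GRCm38.p6), for 17 of 33 members. A Hox gene and a cofactor are not reported here, and every count over members or cofactors leaves them out.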

Additional observations from a re-analysis of the deposited data

Results flagged for a closer look

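In 4 of 26 Hox genes tested for 1 clone far from the rest, the gap to the nearest clone as a share of the whole range exceeded Dixon's critical value at 95% on linear normalized counts; chance gives about 1.3 such genes (1 in 20), and 11.4% of all genes with a library above the floor did so. Hoxd8 was highest in A1, with a gap of 0.706 of its range. Hoxb4 was lowest in A1, with a gap of 0.651. Hoxd3 was highest in A1, with a gap of 0.539, on 5 reads there. Hoxc6 was highest in C4, with a gap of 0.509. On log2(normalized counts + 1), tried after the data were seen, only Hoxb4 of these was past the limit, against 9.80% of all genes. A1 is the library of lowest depth and highest Mettl3, and the part of either in these gaps was not tested.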

How the results depend on the processing

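No paired analysis was possible because the 9 clones form 1 group in the labels, and the meaning of the numbers in the column names, some of which recur across prefixes, is not stated. The count of members called between prefixes was 1, and it was 0 with no filter on low values and with limma without a trend; leaving out a library gave 0 to 2. The count over all genes was 29, and 15 with no filter on low values; leaving out a library gave 9 to 259, with 259 without C3 and 9 without C4. For Hoxb9 the adjusted p was 0.0391 to 0.0975 over 9 other settings and 0.00491 to 0.139 over the 8 libraries left out. No direction reversed among the 6 Hox genes followed through these alternatives (Hoxb9, Hoxa3, Hoxb8, Hoxb2, Hoxc13, Hoxa5; chosen after the values were seen). Without A1 the HoxD share was 1.07% against 2.08%, within its SD over clones. Detection, SD counts, the chi-square count and the median r kept their values within the limits set under their alternatives: with a level above 1 read asked for, 17, 11 and 5 members passed in all, some and no clones, and above 10 reads 14, 10 and 9. Members with 1 clone far from the rest were 4 on linear levels and 1 on log2 levels. That setting, leaving A1 out of the cluster shares and the alternatives for Hoxc5 with Hoxd9 were added after the data were seen. Shares per length were not run. Levels at or under the floor cannot be told from 0 at this depth.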
